A study of Mus musculus with 6 samples.

Results

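Actb, Ppia, B2m, Hprt, Tbp, Ywhaz, Sdha and Gusb are 8 genes commonly used as internal standards when transcript levels are measured by RT-PCR. They were chosen by name, and every probe annotated with 1 of these names was taken. This gave 12 of the 31769 probes on the array and 7 of the 8 genes. Ppia, Tbp and Ywhaz each had 2 probes, Gusb had 3, and B2m, Hprt and Sdha had 1 each. No probe was matched to Actb, which is not analysed here. Probes of a gene are numbered from the brightest.

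The RNA came from MN9D cells, a mouse cell line of dopaminergic character. Cells of the Lmx1a group had received the plasmid pcDNA3.1(-) carrying the complete coding sequence of Lmx1a, which encodes a LIM-homeodomain regulator needed for midbrain dopamine neurons, and control cells the same plasmid empty. Both groups had been given Lipofectamine and pBluescript SKII(+) as carrier DNA, and were harvested near confluence. Each of 3 Lmx1a samples was RNA pooled from 3 dishes, and all were compared with 1 control pool from 9 dishes. Every Lmx1a pool was hybridised on 2-colour arrays once in Cy5 and once in Cy3, a dye swap, which gave 6 arrays. Both arrays of a pool carry the same extracts, so replication is n = 3 pools. With a single control pool, the spread between control cultures is not measured. Whether separate transfections stand behind the pools is not given in the sources used here. Expression came from transient transfection, and the share of cells that took up the plasmid was not analysed here.

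A reference gene serves to correct for unequal amounts of RNA, so its own transcript should be alike in the groups compared. The genes used for this take part in different housekeeping processes, so that they do not share 1 route of control. Ppia encodes cyclophilin A, a prolyl isomerase that assists protein folding. B2m encodes the light chain of MHC class I molecules, and Hprt a salvage enzyme that rebuilds purine nucleotides. Tbp is the TATA-box binding subunit of the general transcription factor TFIID. Ywhaz encodes 14-3-3 zeta, an adaptor that binds phosphorylated proteins. Sdha is the flavoprotein subunit of respiratory complex II, and Gusb is the lysosomal hydrolase beta-glucuronidase. Actb encodes cytoplasmic beta-actin.

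The transfected gene itself gave a log2 ratio of Lmx1a over control RNA of 2.50, 2.60 and 2.75 for replicates 1 to 3 with Lmx1a RNA in Cy5, and of 0.93, 2.95 and 3.19 with it in Cy3. It was above 0 on all 6 arrays. The lowest value came from replicate 1 in Cy3, on the array that was also the dimmest: 44.2% of its probes were detected in both channels, against 59.3% to 65.2% on the other 5. Detection means a spot mean above the local background median by more than 2 background standard deviations. Of 12 dopaminergic markers, 3 were detected in both channels on all arrays, Th, Ddc and Slc18a2. Another 4, Slc6a3, Pitx3, Foxa2 and Aldh1a1, were so detected on none, and the rest on some arrays. Of markers of other cell types, 1 of 5 for astrocytes, 2 of 4 for oligodendrocytes, 1 of 4 for microglia and 1 of 5 for fibroblasts were detected on all arrays.

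No reference gene probe passed the test of the Lmx1a ratio, 0 of 12, but neither did any probe of the array, 0% of 31769. The 3 pool means were tested against 0 with limma, and a probe counted as called at an adjusted p under 0.05 over the whole array. The smallest adjusted p-value on the array was 0.0779, shared by 60 probes. The mean log2 ratios of the 12 probes lay between -0.064 and 0.13, and the limma 95% intervals together spanned 0.921-fold to 1.13-fold. Of the 10 probes that were well above background, 7 had a mean above 0 and 3 below. Of all named genes detected on every array, 53.1% had a mean above 0. The intervals of 8 of these 10 probes held 0. Over all probes of the array, 6.23% had an interval above 0 and 5.56% an interval below 0. For 7 of the 10 the mean was smaller than the SD between pools, and the array-wide share of this is not given here. All 3 pools had the same sign for 3 of 10, against 41.5% of all probes detected on every array. The ratios are relative to the other probes of the same array, since normalization centres each array, and in bulk RNA fewer cells with a transcript and less of it per cell cannot be told apart.

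**Figure D1:**
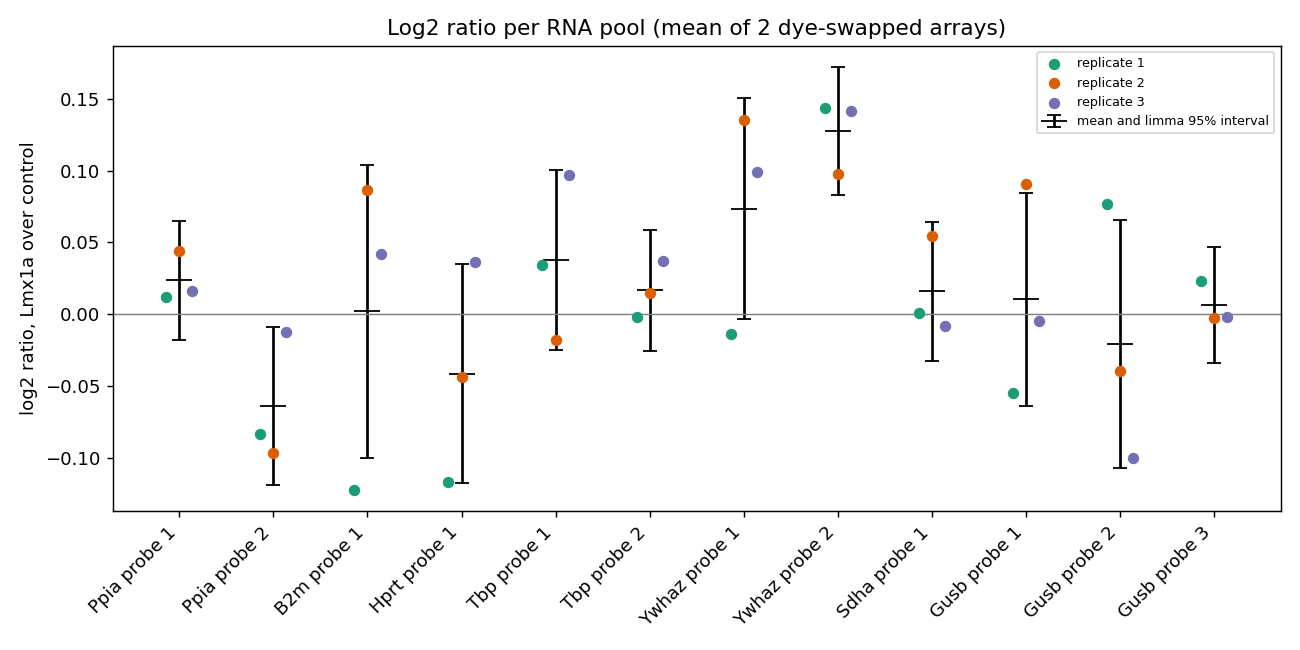
Log2 ratio of Lmx1a over control (vertical axis) for each reference gene probe, as points for the 3 RNA pools, each the mean of its 2 dye-swapped arrays, with the mean and limma 95% interval as bars. The interval crosses 0 for 10 probes, lies above 0 for Ywhaz probe 2 and below 0 for Ppia probe 2. Tbp probe 2 and Gusb probe 3 were not well above background.

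Ywhaz, the 14-3-3 zeta adaptor, had the highest ratios. Its probe 2 gave 0.056, 0.13 and 0.045 for replicates 1 to 3 with Lmx1a RNA in Cy5 and 0.23, 0.063 and 0.24 with it in Cy3. It was the member probe that lay on 1 side of 0 on all 6 arrays, 1 of 12 against 5.28% of all probes. The pool values of 0.14, 0.098 and 0.14 averaged 0.13 ± 0.026 (SD, n = 3), or 1.09-fold. This did not pass, with a limma adjusted p of 0.100, and median centring in place of loess left a mean of 0.031. Probe 1 of Ywhaz read 0.074, 0.16 and 0.11 in the Cy5 orientation and -0.10, 0.11 and 0.093 in the Cy3 orientation. Replicate 1 in Cy3 was thus the exception among otherwise positive values. The pool mean of 0.073 ± 0.078 (SD, n = 3) had a limma adjusted p of 0.451.

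Ppia, the cyclophilin A gene, was read by 2 bright probes. Probe 1 varied little: 0.035, 0.089 and -0.0026 with Lmx1a RNA in Cy5 and -0.012, -0.0015 and 0.034 with it in Cy3. Its pool values of 0.012, 0.044 and 0.016 gave a mean of 0.024 ± 0.017 (SD, n = 3), with a limma interval of -0.018 to 0.065. That SD stood at percentile 12.9 among probes detected on all arrays, so the pools lay closer together than for most probes. The mean itself depended on the normalization. It was 0.084 with loess within print grids, 0.070 in the log2 ratios deposited by the authors and -0.079 with median centring. Probe 2 of the same gene gave 0.021, -0.025 and 0.094 in Cy5 against -0.19, -0.17 and -0.12 in Cy3, and the orientations did not overlap. Its pool values were all negative, at -0.084, -0.097 and -0.012. The mean was -0.064 ± 0.045 (SD, n = 3), with a limma adjusted p of 0.355.

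B2m, the MHC class I light chain, had the mean nearest 0 and the widest spread between pools. Its values were -0.11, 0.026 and -0.017 in Cy5 and -0.13, 0.15 and 0.10 in Cy3. The pools read -0.12, 0.087 and 0.042, so replicate 1 was low in both orientations and the other 2 were above 0. The mean was 0.0021 ± 0.11 (SD, n = 3), and the limma interval of -0.10 to 0.10 is accordingly broad. Its SD stood at percentile 94.8 of the detected probes. The mean near 0 therefore comes from pools of opposite sign, unlike that of Ppia probe 1, whose pools were all above 0. On single arrays both probes had values of both signs.

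Hprt, the purine salvage enzyme, was the 1 gene whose brightest probe had a mean below 0. It gave -0.051, -0.084 and 0.058 in Cy5 and -0.18, -0.0037 and 0.015 in Cy3. Pool values of -0.12, -0.044 and 0.036 averaged -0.041 ± 0.077 (SD, n = 3), with a limma adjusted p of 0.717. Pools of both signs were present, and without replicate 1 the mean was -0.0037.

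Tbp, the TFIID subunit, was dim. Probe 1 gave -0.0083, -0.033 and 0.18 in Cy5 and 0.077, -0.0028 and 0.018 in Cy3, with 1 array, replicate 3 in Cy5, above the rest. The pools read 0.035, -0.018 and 0.097, with a mean of 0.038 ± 0.057 (SD, n = 3). Its total signal above background, both channels added, was 59.0 to 83.7 across arrays, and the background model adds an offset of 50 to each channel, which draws ratios of such dim spots towards 0. With plain subtraction the mean was 0.094, with a limma adjusted p of 0.772. Probe 2 of Tbp was not well above background in either channel on any array, and no fold is given for it.

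Sdha, the complex II flavoprotein, gave 0.064, 0.076 and -0.012 in Cy5 and -0.063, 0.034 and -0.0038 in Cy3. Its pools lay at 0.00064, 0.055 and -0.0079. The mean of 0.016 ± 0.034 (SD, n = 3) was smaller than the spread, and the limma interval ran from -0.033 to 0.064. Of the genes read by a single probe, Sdha had the narrowest interval.

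Gusb, the lysosomal glucuronidase, differed between its probes. Probe 1 gave 0.16, 0.19 and -0.020 in Cy5 and -0.27, -0.0047 and 0.011 in Cy3, the widest span of any member probe. The pools averaged this to -0.055, 0.090 and -0.0045, with a mean of 0.010 ± 0.074 (SD, n = 3). Probe 2 gave 0.069, 0.073 and -0.17 in Cy5 and 0.085, -0.15 and -0.031 in Cy3, and its pool mean was -0.021 ± 0.090 (SD, n = 3). Neither mean exceeded its SD. Probe 3 was not well above background in either channel on any array, and no fold is given.

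**Figure D2:**
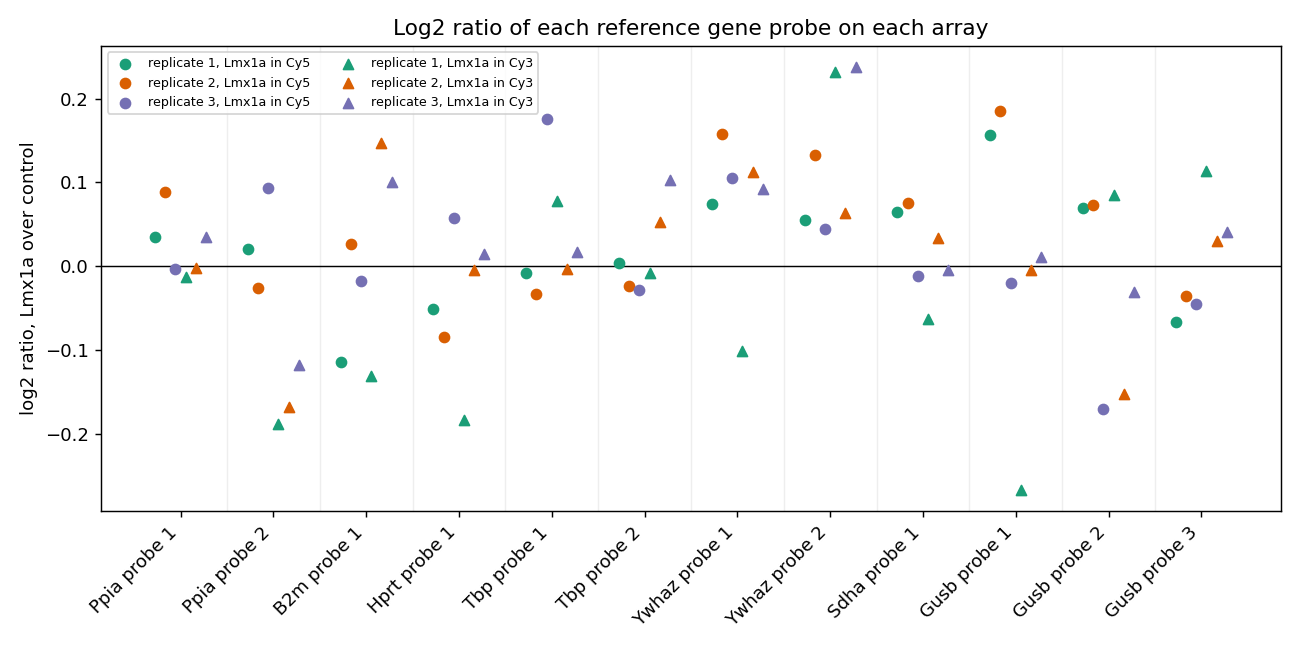
Log2 ratio of Lmx1a over control on each of the 6 arrays (vertical axis) for the 12 reference gene probes, by replicate and dye orientation. Ywhaz probe 2 lies above 0 on every array, and the dimmest array, replicate 1 in Cy3, gives the lowest value for 7 of 12 probes.

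Less strict thresholds placed the members close to the array as a whole. With an unadjusted limma threshold of 0.05, 6.23% of all probes were higher in Lmx1a RNA and 5.56% lower. Among the members, 1 of 12 was higher, Ywhaz probe 2, and 1 of 12 was lower, Ppia probe 2. When all 6 arrays were fitted with a term for dye orientation and the RNA pool as a random block, 333 probes or 1.05% were called at an adjusted p under 0.05, and 0 of 12 members were. The adjusted p of Ywhaz probe 2 in that limma fit was 0.0823, and it was 0.197 when the dimmest array was left out. Without that array, probe 1 of Ywhaz had 0.0875 in the same fit. Leaving out that array thus exchanged the places of the 2 Ywhaz probes, and neither passed.

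Dye orientation made a measurable difference for 1 of 12 member probes, against 6.8% of all probes with an adjusted p under 0.05 for Cy5 over Cy3. It was Ppia probe 2, with mean ratios of 0.030 when Lmx1a RNA carried Cy5 and -0.16 when it carried Cy3. The dye term was 0.094 ± 0.020 (SD, n = 3), with a limma adjusted p of 0.0271, and exceeded the Lmx1a ratio of the same probe. Plain background subtraction and leaving out any 1 replicate each ended this call, whereas median centring in place of loess called 11 of 12 member probes. The 6.8% belongs to the loess fit, and the share of all probes called with median centring is not given here. In 4 of the 10 detected probes the dye term was larger in size than the Lmx1a ratio. The share of all detected probes for which this held is not given here, so it is not read as a trait of the members. Gusb probe 1 had a dye term of similar size, 0.097 ± 0.11 (SD, n = 3), but its pools disagreed and the limma adjusted p was 0.171. Its orientation means were 0.11 in Cy5 and -0.087 in Cy3, opposite in sign. Ywhaz probe 2 was above 0 in both orientations, at 0.078 and 0.18. Averaging the orientations removes a constant dye term from the pool values.

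**Figure D3:**
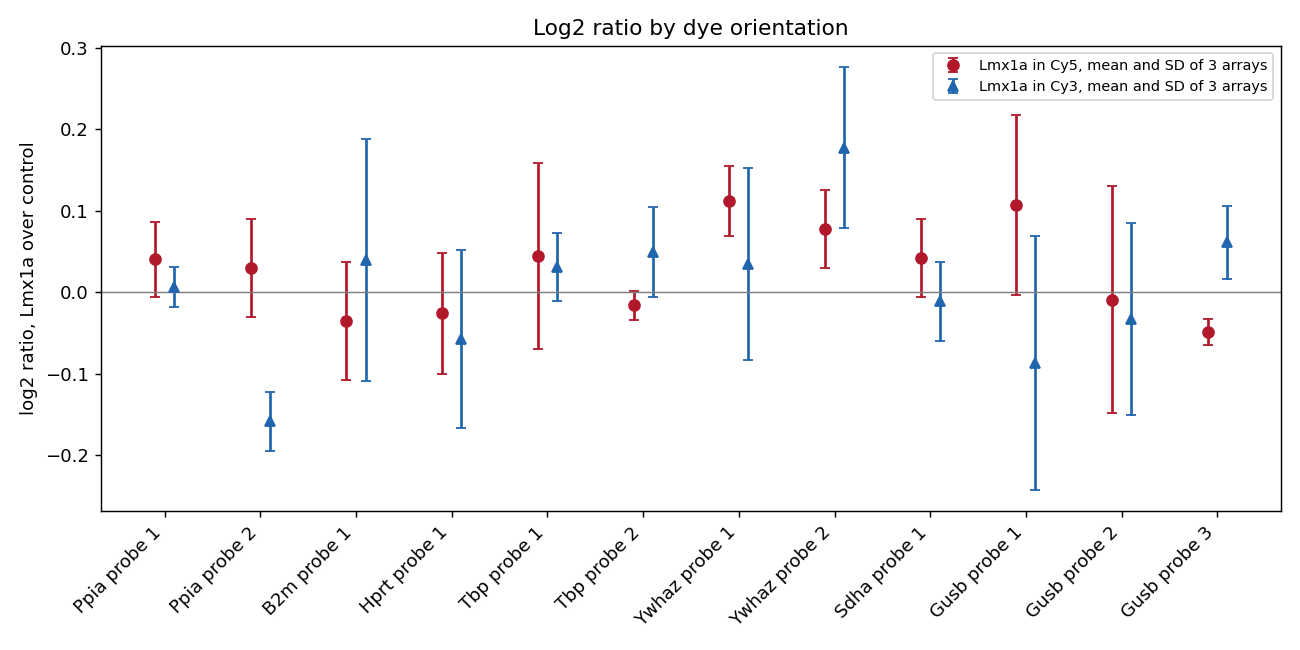
Mean log2 ratio of Lmx1a over control (vertical axis) for each reference gene probe in each dye orientation, with bars for the SD of 3 arrays. Ppia probe 2 differs most clearly, at 0.030 with Lmx1a RNA in Cy5 and -0.16 in Cy3.

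Detection was common among the members: 10 of 12 probes were detected in both channels on all 6 arrays, against 39.2% of all probes. The exceptions were the second Tbp probe and the third Gusb probe. Brightness, as total signal above background over both channels, nevertheless varied widely for the same probe between arrays. Hprt gave 248, 1893 and 2384 on the arrays of replicates 1 to 3 with Lmx1a RNA in Cy5, and 191, 1928 and 2295 in the other orientation. Both arrays of replicate 1 were thus far below the other 4, a 12.5-fold range. Control RNA, which came from the same pool on every array, showed it too: on the arrays where it carried Cy3, its Hprt signal was 86.2, 635 and 741. Gusb probe 1 followed the same arrays, with totals of 270, 1219 and 1141 and then 247, 1343 and 1556. The share of this range that belongs to the spot, the array or the RNA was not tested.

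Ywhaz probe 2 had the largest range of brightness, 14.2-fold, with totals of 1436, 237 and 279 in the Cy5 orientation and 3148, 222 and 2139 in the Cy3 orientation. Its order of arrays was not that of Hprt, since replicate 1 in Cy3 was its brightest and the dimmest array overall. Probe 1 of Ywhaz was brightest on another array, replicate 1 in Cy5, at 3654 against 684 to 907 elsewhere. The log2 ratio of Ywhaz probe 2 spanned only 0.19 over these arrays, so both channels varied together.

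Ppia probe 1, B2m and Sdha had similar signals on 5 arrays and far lower ones on the dimmest. Ppia probe 1 totalled 25493, 24608 and 23481 in Cy5, 24005 and 24324 for replicates 2 and 3 in Cy3, and 5144 on the dimmest. B2m read 6730, 6644 and 7813, then 1191, 8595 and 8402. Sdha read 2161, 1698 and 2117, then 467, 1982 and 2320. Their ranges of 4.96-fold, 7.21-fold and 4.97-fold compare with a median of 3.97-fold and a 90th percentile of 9.57-fold among all detected probes. The dim array did not lower every member, because Ppia probe 2 read 1660 there within a range of 1151 to 2080, and Gusb probe 2 read 141 within 117 to 156. Signals of different probes are not compared with each other.

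**Figure D4:**
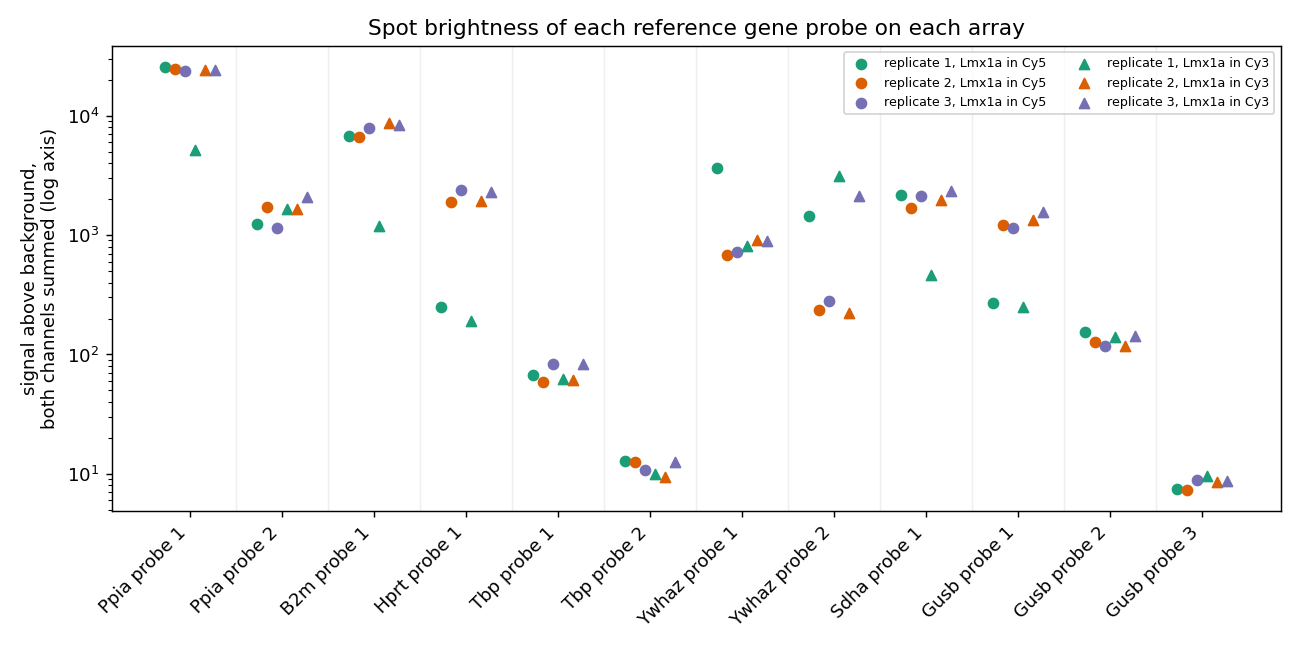
Total signal above background, both channels added, on a log axis (vertical) for each reference gene probe on each of the 6 arrays. Hprt and Gusb probe 1 are low on both arrays of replicate 1, while Ppia probe 1, B2m and Sdha are low on the dimmest array alone.

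The dimmest array also held the lowest ratios. For 6 of the 7 genes, taking the brightest probe of each, the lowest log2 ratio of the 6 arrays was on this array, replicate 1 in Cy3, and Tbp was the exception. Over all 12 probes the count was 7, against 17.1% of all probes on the array and 19.2% of those detected on all arrays. The mean over the 7 genes was 0.022, 0.060 and 0.041 on the Cy5 arrays, 0.040 and 0.038 for replicates 2 and 3 in Cy3, and -0.097 on the dimmest. The other 5 arrays thus lay within 0.022 to 0.060. Per pool the mean was -0.037, 0.050 and 0.040, which gives 0.017 ± 0.048 (SD, n = 3) overall. The median log2 ratio of all probes on that array was -0.0032. The part of low brightness in these ratios was not tested.

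Differences between the reference genes were small and mostly without a constant sign. Of 21 pairs of genes, each by its brightest probe, 4 had a difference of the same sign in all 3 pools. The log2 ratio of Hprt minus that of Ywhaz was -0.10, -0.18 and -0.062 in the pools, a mean of -0.11 ± 0.059 (SD, n = 3). The others were B2m below Ywhaz, at -0.071 ± 0.033 (SD, n = 3), Hprt below Tbp, at -0.079 ± 0.065 (SD, n = 3), and Ywhaz above Gusb, at 0.063 ± 0.035 (SD, n = 3). Ywhaz was in 3 of these 4 pairs and Hprt in 2. An exact permutation test over 3 pools cannot go below 0.25, and these 21 differences were not tested in another way.

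The steadiest pair was Ppia and Sdha, whose difference had an SD of 0.018 between pools, with values of 0.011, -0.011 and 0.024. The least steady was B2m and Tbp, with an SD of 0.13. Ranked by the mean SD of a gene's differences to the other 6, the order ran from Ywhaz at 0.060 through Ppia at 0.064, Sdha and Gusb at 0.067, Hprt at 0.075 and B2m at 0.082 to Tbp at 0.097. Ywhaz thus kept the most even distance to the others while having the highest mean ratio. Neighbours in this order differ by little and were not tested. When single arrays replaced pools, Gusb moved from rank 4 to rank 7.

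Probes of the same gene did not track each other across arrays. The probes of Ppia differed by 0.088 ± 0.056 (SD, n = 3) on the log2 scale, probe 1 the higher in all 3 pools. Probe 1 of Ywhaz minus probe 2 was -0.054 ± 0.098 (SD, n = 3), with pools of both signs, and across the 6 arrays their ratios had a correlation of -0.52. Probes 1 and 2 of Gusb differed by 0.031 ± 0.14 (SD, n = 3). These SDs of 0.056 to 0.14 between probes of a gene were of the size seen between different genes, 0.018 to 0.13. Across arrays the ratios of the Ppia probes had a correlation of 0.28 and those of the Gusb probes 0.073. The correlations are descriptions over 6 arrays that share a control pool, and where the probes lie in their transcripts was not analysed here.

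Between genes, each by its brightest probe, the closest patterns over the 6 arrays were those of Sdha and Gusb, with r = 0.950. Ywhaz and Gusb followed at 0.851 and Ppia and Gusb at 0.798. Gusb, Sdha, Ywhaz and Ppia each had their lowest ratio on the dimmest array, at -0.27, -0.063, -0.10 and -0.012. The part of that array in these correlations was not tested. Tbp had no close partner, its highest being 0.271 with Hprt. Outside the members, the genes whose ratios ran most like the mean of the 7 were Cd47 at 0.993, Rnf111 at 0.989 and Msl1 at 0.987, of 10122 detected named probes compared. Cd47, an integrin-associated cell surface protein, read 0.13, 0.20 and 0.14 in Cy5 and -0.20, 0.13 and 0.16 in Cy3. Rnf111, a ubiquitin ligase, read -0.058 on the dimmest array and 0.097 to 0.17 on the rest. Msl1, a subunit of a histone acetyltransferase complex, read -0.15 there and 0.049 to 0.15 elsewhere. All 3 thus share the low value on the dimmest array with the mean of the members. They were picked by likeness to that mean, which is lowest on this array, so the shared low value follows from the choice.

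Scaling to a reference gene, as is done for an RT-PCR result, was applied to Lmx1a and to Rgs4 and Grb10, each by its brightest probe. Rgs4 encodes a regulator of G protein signalling and Grb10 an adaptor of insulin receptor signalling. Lmx1a, at 1.71, 2.78 and 2.97 in the 3 pools before scaling, averaged 2.49 ± 0.68 (SD, n = 3). After scaling its mean ran from 2.41 with Ywhaz to 2.53 with Hprt, so the choice of reference moved it by less than its spread. Rgs4 stood at 0.20, 0.18 and 0.10 unscaled, a mean of 0.16 ± 0.052 (SD, n = 3). Scaled to Ywhaz it was 0.087 ± 0.11 (SD, n = 3), to Hprt 0.20 ± 0.13 (SD, n = 3) and to the mean of the 7 genes 0.14 ± 0.090 (SD, n = 3). For Rgs4 the reference thus changed the mean by more than its unscaled SD.

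Grb10 showed the same for an even smaller ratio. Its pools read 0.059, 0.14 and 0.11 unscaled, a mean of 0.10 ± 0.041 (SD, n = 3). Scaling to Ywhaz left 0.031 ± 0.037 (SD, n = 3), with pool values of 0.073, 0.0031 and 0.016, whereas scaling to Hprt gave 0.15 ± 0.058 (SD, n = 3). With the mean of the 7 genes it was 0.087 ± 0.011 (SD, n = 3), at 0.097, 0.088 and 0.075. All 3 genes stayed above 0 in 3 of 3 pools under every single reference and under their mean. The lowest pool values, scaled to Ywhaz, were 0.0035 for Rgs4 and 0.0031 for Grb10. Unscaled, 41.5% of all probes detected on every array had the same sign in all 3 pools. None of the 3 genes was called in the main fit, since no probe was. On single arrays Rgs4 and Grb10, positive on all 6 unscaled, were positive on 4 of 6 for Rgs4 scaled to B2m and for Grb10 scaled to Tbp or Gusb, and on 5 or 6 with the others. Plain background subtraction raised the values scaled to the mean of the 7 to 3.77 for Lmx1a, 0.29 for Rgs4 and 0.17 for Grb10. These array ratios stand in for the arithmetic of RT-PCR scaling and are not RT-PCR measurements.

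**Figure D5:**
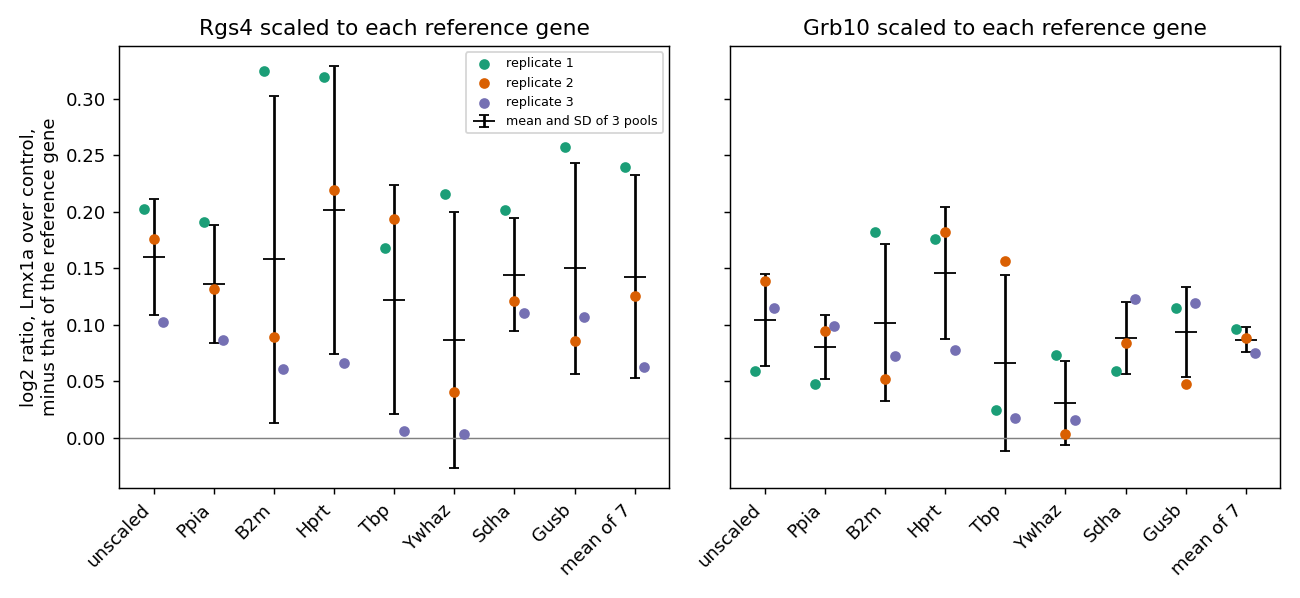
Log2 ratio (vertical axis) of Rgs4 and Grb10 unscaled, minus the log2 ratio of each reference gene, and minus the mean of the 7. Points are the 3 RNA pools, with mean and SD. The means of Rgs4 and Grb10 are lowest when scaled to Ywhaz and highest when scaled to Hprt.

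Using the mean of the 7 genes to centre every array, in place of the normalization across all probes alone, changed the count of called probes from 0 to 596 by limma, of which 156 were higher and 440 lower. None of the 12 member probes was among them, though centring sets the members near 0 by construction. Of the 596, 244 were also among the 333 called with the RNA pool as a block.

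Relatives of the reference genes were examined by function, each by its brightest probe, with gene names listed from general knowledge. No gene of these lists passed at an adjusted p under 0.05. The counts are therefore of means above 0, over genes detected in both channels on all arrays, which held for 53.1% of all 8274 such genes, whose median was 0.0030. In the 14-3-3 family, 4 of 5 detected genes were above 0 and the median was 0.11. Ywhah was the highest at 0.15 ± 0.081 (SD, n = 3) and Ywhag the lowest at -0.028 ± 0.036 (SD, n = 3). In the actin family, with actin-related proteins, 7 of 7 were above 0, with a median of 0.099. Actr2, of the Arp2/3 complex that nucleates branched actin, had 0.19 ± 0.11 (SD, n = 3), and Actr1a of the dynactin complex 0.023 ± 0.087 (SD, n = 3). Detected genes of both families thus lay mostly above 0, and none of them was called.

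Means of lysosomal hydrolases lay the other way, with 1 of 13 detected genes above 0 and a median of -0.022. Fuca1, which removes fucose, was that gene at 0.014 ± 0.0051 (SD, n = 3) and Idua, the iduronidase, the lowest at -0.053 ± 0.0088 (SD, n = 3). Apart from Fuca1, Idua and Hexa, each of these detected genes had pools of both signs and an SD above the size of its mean. Cyclophilins were divided, 5 of 12 above 0 with a median of -0.0020, from Ranbp2 of the nuclear pore at 0.065 ± 0.091 (SD, n = 3) to Ppih of the spliceosome at -0.11 ± 0.043 (SD, n = 3). TFIID subunits and Tbp relatives were divided likewise, 8 of 16 with a median of 0.0032, between Taf2 at 0.093 ± 0.063 (SD, n = 3) and Taf10 at -0.085 ± 0.084 (SD, n = 3). The last 2 medians were close to that of all detected genes.

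Among purine salvage genes 3 of 7 were above 0, and the median was -0.0042, with Dck, a deoxynucleoside kinase, at 0.18 ± 0.15 (SD, n = 3) and the AMP deaminase Ampd2 at -0.051 ± 0.074 (SD, n = 3). For MHC class I and peptide loading, 8 of 10 were above 0, and the median was 0.026. The chaperone Pdia3 reached 0.14 ± 0.17 (SD, n = 3), and the peptide transporter subunit Tap2 was at -0.0060 ± 0.014 (SD, n = 3). Complex II and its assembly factors had 2 of 4 above 0 and a median of 0.0019, from Sdhd at 0.069 ± 0.088 (SD, n = 3) to Sdhaf4 at -0.038 ± 0.014 (SD, n = 3). For 4 of these 6 named genes the SD exceeded the size of the mean.

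Of 27 other detected genes in use as references, 17 were above 0, and their median was 0.0090. Gapdh, the glycolytic dehydrogenase, was the highest at 0.35, 0.15 and 0.068 in the 3 pools, a mean of 0.19 ± 0.15 (SD, n = 3) with a limma adjusted p of 0.268. The ribosomal protein gene Rpl32 was the lowest at -0.069, -0.12 and -0.14, a mean of -0.11 ± 0.036 (SD, n = 3) with a limma adjusted p of 0.142. The mean of Gapdh lay farther from 0 than those of all 12 reference gene probes, and that of Rpl32 farther than 11 of 12, the exception being Ywhaz probe 2.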

How the data were processed

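The deposited scanner tables of 6 arrays give spot intensity on a linear scale, with local background, per the file headers. The authors also deposited log2 ratios, read from the values as Lmx1a over control after loess within 48 print grids (correlation with such ratios 0.996 to 0.999), whose column medians were 0.0046, 0.0046 and 0.0050 with Lmx1a in Cy5 and -0.0022, -0.0039 and -0.0042 in Cy3. They served as an alternative. The software is not given in the sources used here.

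Of 34992 spots, 3223 controls had weight 0 and were then left out. Intensities were corrected by normexp (offset 50) and loess (span 0.3), turned to Lmx1a over control, averaged per RNA pool and tested with limma 3.58.1 in R 4.3.3, Benjamini-Hochberg over 31769 probes, threshold 0.05. The fit was tested on simulated data. The number of arrays limits the precision, and p-values reflect no more than the spread among the 3 pools, which may be technical.

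The platform annotation named 26000 probes with 1 gene, 0 with several and 5769 with none, and 2865 names were updated through RefSeq (GRCm38.p6, names only), Hprt1 to Hprt among them. All member probes are given, with the highest and lowest detected gene of each list and the 3 genes most like the members' mean. Members and lists were chosen with earlier results of these data known. That same extracts were on both arrays of a pool comes from the design text, and their deviations correlated at 0.038, 0.19 and 0.069. Over all probes, the log2 ratios themselves correlated at -0.095, 0.032 and -0.21 between both arrays of pools 1 to 3. Arrays of different pools in the same dye orientation correlated at 0.32 to 0.50. The ratios were thus more alike within a dye orientation than within a pool. No sequences are shown, since probe sequences were not used here.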

Additional observations from a re-analysis of the deposited data

Results flagged for a closer look

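Ppia probe 2, whose dye term passed the limma test, had mean ratios of opposite sign by dye orientation. Its mean log2 ratio with Lmx1a RNA in Cy5 minus that in Cy3 was 0.188. Opposite signs were also seen for Gusb probe 1, at 0.11 in Cy5 and -0.087 in Cy3, and for B2m and Sdha. Tbp probe 2 and Gusb probe 3, which were not well above background, had them too. Ywhaz probe 1 on the dimmest array, replicate 1 in Cy3, read -0.10, apart from the other 5 arrays by Dixon's criterion. The mean over the 7 reference genes on that array, -0.097, stood apart in the same way. Ywhaz probe 1 was 1 of 12 probes to meet this criterion, which chance alone meets in about 1 of 20.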

How the results depend on the processing

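Across 16 alternatives and leave-one-out fits, 0 of 190 recomputed member values were called, and the smallest adjusted p was 0.0641. Of these, 46 came from 4 settings that leave the mean as it is. Of the other 144, the sign held in 119 and turned in 25, at sizes up to 0.087. Centring on the reference genes lowers the mean of every probe by 0.017. The amounts subtracted in pools 1 to 3 differ, at -0.037, 0.050 and 0.040. The number of probes called on the whole array was 596 when centred on the reference genes, 49 with median centring, 993 with Lmx1a only in Cy5, 215 only in Cy3, 333 with the replicate block and 91 with that block without the dimmest array, the last chosen after seeing the data, and 0 to 1 when a replicate was left out. In the fits of 1 orientation alone, dye and Lmx1a RNA cannot be told apart. Member probes with dye bias numbered 11 with median centring, 0 with plain subtraction, 2 with a variance trend and robust prior, and 0 without any 1 replicate. The share of all probes with dye bias in each of these settings is not given here. B2m turned to -0.026 with the authors' values and within print grids, -0.015 centred on the reference genes, -0.050 with median centring, -0.035 in Cy5, and -0.040 to 0.064 leaving out a replicate. Gusb probe 1 turned to -0.0071 centred, -0.0060 with median centring, -0.087 in Cy3, and -0.030 to 0.043 leaving out a replicate, and probe 2 ranged from -0.070 to 0.019. Gusb probe 3 and Tbp probe 2 were not well above background, and no direction is read from their values. Gusb probe 3 gave -0.011 centred, -0.034 with median centring, -0.049 in Cy5, -0.0073 in the block without the dimmest array, and -0.0021 to 0.011 leaving out a replicate. Ppia probe 1 turned to -0.079 with median centring and probe 2 to 0.030 in Cy5. Sdha turned to -0.0016 centred, -0.011 in Cy3, and -0.0036 to 0.028 leaving out a replicate. Tbp probe 2 gave -0.00067 centred, -0.016 with median centring and -0.016 in Cy5. The cause was not tested. The replicate block changed no call of a member. Dim signal limits Tbp and the dimmer Gusb probes.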
